A study of Mus musculus with 12 samples.

Results

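Replication-dependent histone genes encode the linker histone H1 and the core histones H2A, H2B, H3 and H4 that package newly made DNA. The genes were taken from the count table by their Ensembl identifiers, as protein-coding genes named H1f1 to H1f5 or with symbols that begin with H2ac, H2bc, H3c or H4c and a number. This gave 67 of 56748 genes, of which 5 were H1, 18 were H2A, 19 were H2B, 12 were H3 and 13 were H4 genes. On GRCm39, 53 lay on chromosome 13, 10 on chromosome 3, 3 on chromosome 11 and 1 on chromosome 6, and 58 were annotated as single exons only.

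Bulk RNA sequencing was performed on bone marrow-derived macrophages (BMDM) of C57BL/6J mice, with 3 libraries for each of 4 conditions. No source says whether the libraries of a condition came from separate mice or cultures, so the p-values measure the spread between these libraries, which may be technical. The mice that the study bought were female and 10 to 12 weeks old at purchase. Bone marrow cells were grown with M-CSF at 20 ng/mL, and IL4 at 10 ng/mL was then given for 48 hours in all 4 conditions to obtain M2-like cells. The cells were then kept for 72 hours in plain medium (untreated control), in recombinant IFNβ (rIFNβ) at 1500 pg/mL, or in medium conditioned by Dox-treated YUMM5.2 cells. YUMM5.2 cells are an established melanoma line from the mouse. The Ifnb1eGFP derivative carries a lentiviral vector in which a tetracycline-responsive promoter drives Ifnb1 and eGFP, and the eGFP derivative carries eGFP alone. Both donor lines had received Dox at 1 µg/mL. The IFNβ in Ifnb1eGFP supernatant was measured by ELISA and brought to 1500 pg/mL, and the supernatant of eGFP cells received an equal dilution. Both supernatants can therefore carry Dox and other secreted products, which the rIFNβ and untreated cells did not receive.

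Cells make these histones mainly in S phase, when DNA is copied. Their mRNAs usually end in a conserved stem-loop and not in a poly(A) tail. The stem-loop is bound by SLBP, the U7 snRNP directs the cut behind it, and the mRNAs are destroyed when replication stops. Some of the genes also make longer, polyadenylated transcripts in cells that have stopped dividing.

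The stem-loop was looked for in GRCm39 within 150 bases behind the stop codon of each gene's canonical transcript. The word of 16 bases that most members shared was present without a mismatch in 39 of the 67 genes, and 58 held it with at most 2 mismatches. When inverted repeats with up to 4 mismatches were added, 63 genes held it, at 22 to 59 bases from the stop codon (median 32). Among 21703 other protein-coding genes 7 held it (0.032%). The 4 members without it were H2bc21, H2bc22, H2bc23 and H2bc24. In H2bc22, H2bc23 and H2bc24 the stop codon used lies behind an intron. The bases that would follow an unspliced reading frame of these genes were not searched. The stretches below belong to 8 members that were among the 4 highest of their classes and whose levels are described below. Each lies in the 3′ UTR of its gene, that of H2ac25 in a gene that overlaps Trim17 on the same strand, and the capitals mark the 16 bases of the element.
H1f2, chr13:23923490-23923515, plus strand: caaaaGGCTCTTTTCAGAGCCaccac
H2ac25, chr11:58845993-58846018, plus strand: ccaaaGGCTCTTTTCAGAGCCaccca
H2ac19, chr3:96147095-96147120, minus strand: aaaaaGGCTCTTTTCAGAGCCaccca
H2bc4, chr13:23868625-23868650, plus strand: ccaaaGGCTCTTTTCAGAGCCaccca
H2bc8, chr13:23756012-23756037, plus strand: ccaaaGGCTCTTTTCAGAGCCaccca
H3c15, chr3:96145796-96145821, minus strand: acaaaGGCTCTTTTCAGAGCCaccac
H4c9, chr13:22225131-22225156, minus strand: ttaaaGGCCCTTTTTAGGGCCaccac
H4c8, chr13:23715623-23715648, plus strand: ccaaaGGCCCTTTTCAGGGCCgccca

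The first 6 carried the same 16 bases, and the H4 genes did not. The word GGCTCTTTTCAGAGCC was found in 5 H1, 15 H2A, 11 H2B and 8 H3 genes and in 0 H4 genes. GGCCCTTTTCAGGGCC was found in 8 genes, all of them H4, and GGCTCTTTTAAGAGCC in 8 genes, of which 4 were H2B, 3 H3 and 1 H2A. H1f2 and H2ac25, which responded to IFNβ in opposite directions, held the same word, as did H2bc4, whose difference did not pass the test.

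The 12 libraries held 31526034 to 45348457 counts, of which the 67 genes took 159.3 to 295.2 CPM before scaling. The unit of all levels is CPM, which relates each gene to the TMM-scaled library total, and CPM per kb of annotated exon is used to compare genes with each other. The macrophage markers Csf1r, Adgre1, Cd68, Itgam, Mertk and Fcgr1 summed to 5315 to 6381 CPM in every library, and the melanoma markers to 0.224 to 0.810 CPM. The 5 listed markers of neutrophils and their precursors summed to 4.22 to 5.72 CPM in the 6 libraries without IFNβ and to 0.208 to 0.834 CPM in the 6 with it. S100a8 carried that difference, while Ly6g, Mpo, Elane and Camp had 0 to 10 counts per library. The T cell list was higher with IFNβ, at 8.06 to 9.96 against 3.72 to 5.05 CPM, through Cd4, while Cd3e, Cd3g, Trac and Cd8a had 0 or 1 count per library. The fibroblast sum ran from 16.6 to 53.8 CPM and overlapped between conditions with and without IFNβ, but its 3 genes passed the test in both comparisons, without overlap. Dcn was higher with IFNβ, at 25.3 against 9.92 CPM with rIFNβ and at 31.2 against 8.97 CPM in supernatant. Pdgfra was higher too, at 5.57 against 2.47 and at 5.14 against 1.62 CPM, and Col1a1 was lower, at 7.90 against 16.6 and at 8.24 against 16.8 CPM. The part of these cells in the results was not tested.

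Levels were very uneven. Of the 67 genes 12 had 0 counts in all 12 libraries, and 39 never exceeded 10 counts in any library. H2bc4 held 51.1% of all member counts, H1f2 30.8% and H2ac25 8.42%. Per kb of exon, H1f2 led with 46.5 CPM, followed by H2bc4 with 38.8, H2ac25 with 9.09, H2bc8 with 5.53, H2ac19 with 5.23 and H4c9 with 3.58. The 13 H4 genes together reached 5.45 and the 12 H3 genes 2.20 CPM per kb.

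**Figure D1:**
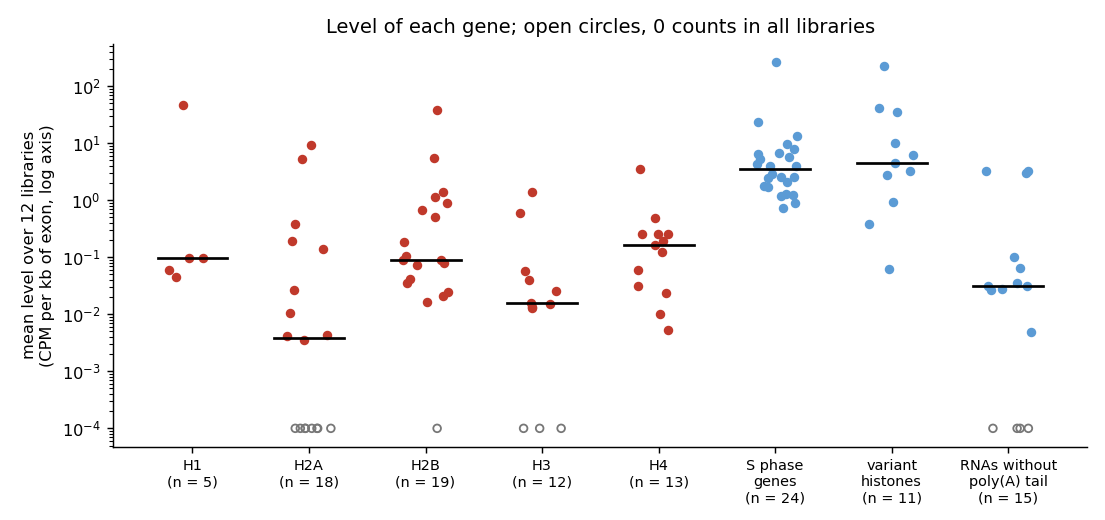
Mean level of each gene over the 12 libraries in CPM per kb of exon on a log axis, for the 5 histone classes (red) and for the listed S phase genes, variant histones and RNAs without a poly(A) tail (blue). Bars are medians and open circles are genes with 0 counts. Most histone genes lay below all S phase genes, and 12 members had no count.

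The sequencing kit is named for total RNA, which keeps transcripts without a poly(A) tail, so 12 genes for such RNAs, which map to 15 identifiers, were read as a check. They summed to 56 to 215 counts per library. The 7SK RNA (Rn7sk) had 16 to 65 counts, the 2 signal recognition particle RNAs Rn7s1 and Rn7s2 had 18 to 80 each with identical values, and U7 RNA (Rnu7) had 0 in all libraries. The listed RNAs are small and structured, so their low counts cannot show whether longer RNAs without a poly(A) tail were kept. The 24 listed S phase genes had a median of 3.46 CPM per kb, against 0.0580 for the 67 histone genes, and 10 of the 67 lay above the lowest S phase gene. Levels below are those of the transcripts that these libraries held. How far they stand for the stem-loop mRNAs was not tested.

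**Figure D2:**
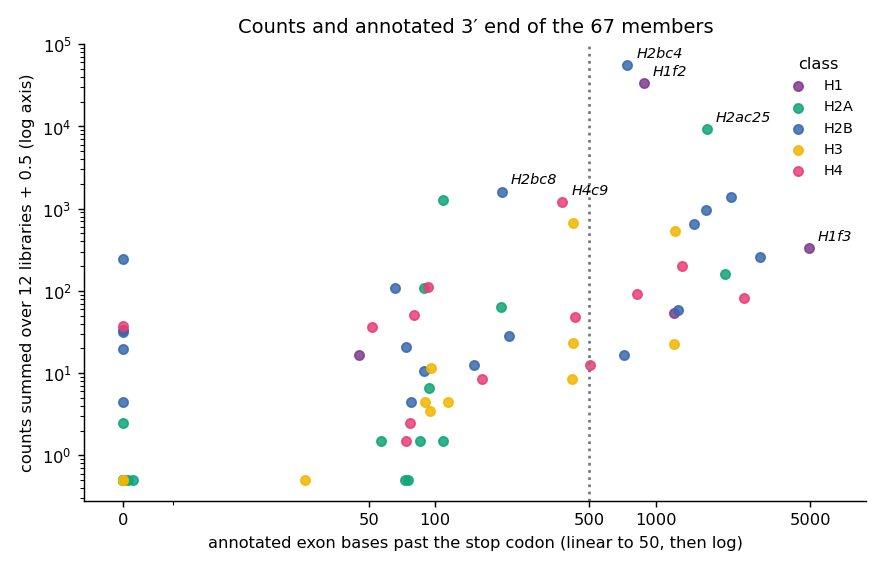
Counts summed over the 12 libraries (log axis, 0.5 added) against annotated exon bases behind the stop codon for the 67 genes, coloured by class. The dotted line is at 500 bases, and H2bc4, H1f2 and H2ac25 lie to its right.

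Counts lay mostly with genes annotated with long 3′ ends. The 18 members with at least 500 annotated bases behind the stop codon held 94.7% of member counts, and each of them had at least 1 count. The other 49 held 5.29%, and 12 of them had none. The word AATAAA was looked for on the transcript strand in the last 50 bases. It occurred in the canonical transcript of 57.2% of 21770 protein-coding genes. For members, all annotated transcripts of a gene were searched, so their number cannot be set directly against that share. It occurred in 17 members, which held 94.2% of member counts. H2bc8, H4c9, H2ac19 and H3c15 were the exceptions with many counts, with 200, 376, 109 and 423 annotated bases behind the stop codon. A long annotated gene also has more sequence in which reads can fall, and the median per kb was 0.152 for the 18 genes and 0.0234 for the 49.

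Many H2A and H2B genes stand in pairs that start close together and point away from each other. There were 13 such pairs, and in the 4 with the highest summed level the partners were very unequal. H2bc4 reached 38.8 CPM per kb and its partner H2ac6, whose transcripts overlap it, 0.139 CPM per kb. H2ac25 reached 9.09 CPM per kb, against 0.106 for H2bc26, whose start lies 257 bases away. H2bc8 reached 5.53 CPM per kb, against 0.195 for H2ac8 at 176 bases. The last pair was H2bc21 with 1.11 and H2ac20 with 0.0264 CPM per kb, 239 bases apart. The higher partner was thus H2B in 3 pairs and H2A in 1.

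The effect of IFNβ was read from the comparison of rIFNβ with untreated control and, in separate libraries, from that of Ifnb1eGFP with eGFP supernatant. All 67 genes together summed to 263.6, 263.7 and 289.9 CPM in the untreated controls and to 272.4 to 301.8 in eGFP supernatant. They summed to 193.8, 203.3 and 184.7 CPM in rIFNβ and to 158.3, 223.3 and 166.1 CPM in Ifnb1eGFP supernatant. Every library with IFNβ lay below every library without it. The mean with rIFNβ was 0.712 of that of its control, and with Ifnb1eGFP supernatant 0.632. These sums have no p, because the genes were chosen with results of these data known. In bulk RNA, fewer cells that express a gene and less RNA per cell cannot be told apart.

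**Figure D3:**
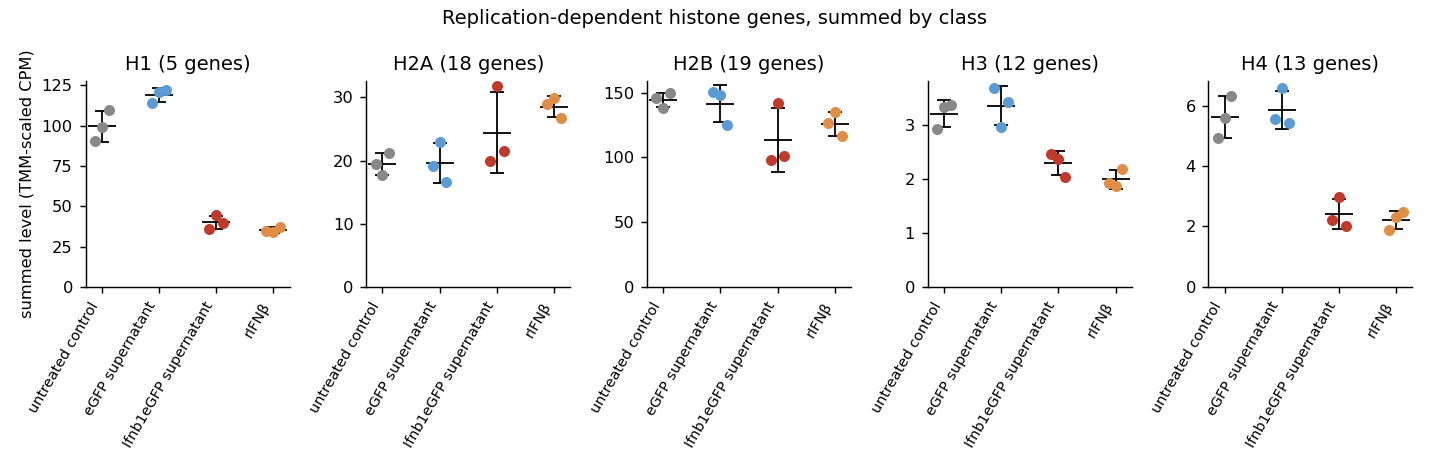
Summed level of each class in TMM-scaled CPM, by condition. Points are the 3 libraries, the horizontal bar is their mean and the whiskers are 1 SD. H1, H3 and H4 sums were lower in every library with IFNβ, and the H2A sum was higher in every rIFNβ library than in the untreated controls.

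The classes did not move alike. The H1 sum was 99.7 ± 9.57 CPM (SD, n = 3) in untreated control and 35.3 ± 1.62 in rIFNβ, and 119 ± 4.28 in eGFP and 40.0 ± 4.20 in Ifnb1eGFP supernatant. The H4 sum was 5.61 ± 0.694 and 2.23 ± 0.298 CPM in the first pair and 5.85 ± 0.633 and 2.41 ± 0.506 in the second. The groups of neither class overlapped in either comparison. The H3 sum was lower as well, at 2.00 ± 0.176 against 3.21 ± 0.252 CPM and at 2.30 ± 0.230 against 3.37 ± 0.363. The H2B sum was 126 ± 9.43 against 144 ± 5.61 CPM with rIFNβ, without overlap, and 113 ± 24.7 against 141 ± 14.1 CPM with Ifnb1eGFP supernatant, with overlap. The H2A sum went the other way, at 28.5 ± 1.65 against 19.5 ± 1.80 CPM with rIFNβ and at 24.4 ± 6.44 against 19.6 ± 3.17 CPM, with overlap, in supernatant.

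Single genes held most of the sum of every class. H2ac25 held 84.8% of the H2A sum, and without it the H2A sum turned, with a log2 ratio of −1.26 in place of 0.55 for rIFNβ and of −1.44 in place of 0.32 for the supernatants. H2bc4 held 91.3% of the H2B sum, and without it the log2 ratio of that class was −0.82 in place of −0.20 and −1.04 in place of −0.32. Without the highest gene of every class the log2 ratio of all classes together was −0.89 for rIFNβ and −1.08 for Ifnb1eGFP supernatant. H4c9 held 64.6% of the H4 sum, whose log2 ratio without it was −0.62 in place of −1.33 and −0.87 in place of −1.28. H1f2 held 98.7% of the H1 sum. H3c15 held 53.0% of the H3 sum, whose log2 ratio with rIFNβ was −0.45 without it in place of −0.69. In the supernatants the H3 sum without H3c15 was 1.20 CPM with Ifnb1eGFP against 1.58 CPM with eGFP.

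Tests of single genes were possible for 20 of the 67 genes, which passed the filter on low counts. The other 47 are described only by the levels above. A gene of low level can pass the filter through its higher groups alone, so the counts of calls describe the 20 genes and are no measure over the 67. With rIFNβ, 7 of the 20 fell and 1 rose at an adjusted p of at most 0.05 (edgeR quasi-likelihood, Benjamini-Hochberg over 15033 genes), where 24.6% of all genes tested fell and 30.7% rose. With Ifnb1eGFP against eGFP supernatant, 10 of the 20 fell and 1 rose, against 25% and 30.1% of all genes. The median log2 fold change of the 20 was −0.81 and −1.08, and that of all genes 0.04 and 0.03. The 7 genes that fell with rIFNβ were among the 10 that fell in supernatant. The CPM of all libraries with IFNβ lay below those of their controls for 8 of the 20 genes with rIFNβ (29.7% of all genes) and for 11 in supernatant (26.6%), and above them for 1 gene in each. When a log2 fold change of 2 or more in size was also required, with 0.01 as the limit of the adjusted p, 0 members were called with rIFNβ and 1, H2bc9, in supernatant, where 5.77% and 5.39% of all genes were. H2bc9 passed the filter through libraries without IFNβ alone.

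**Figure D4:**
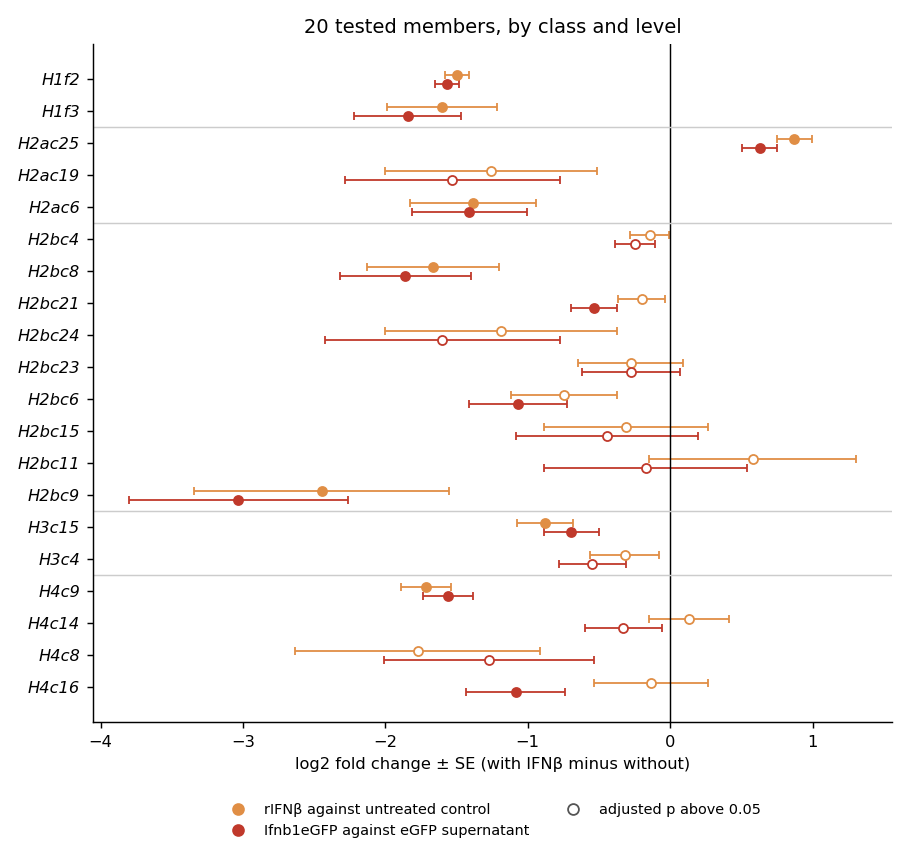
Log2 fold change with its standard error for the 20 members tested, in order of class and, within a class, of level. Filled points passed an adjusted p of 0.05 and open points did not. H1f2, H1f3, H2ac6, H2bc8, H2bc9, H3c15 and H4c9 fell and H2ac25 rose in both comparisons, and the fitted values of H2bc9 rest on 0 to 3 counts per library with IFNβ. H2ac6, H2bc9, H4c8 and H4c16 passed the filter only because of libraries without IFNβ.

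H1f2 (ENSMUSG00000036181) encodes the linker histone H1.2, which binds DNA between nucleosomes and compacts chromatin. Its levels were 89.5, 97.5 and 108.2 CPM in untreated control and 113.0, 119.0 and 120 CPM in eGFP supernatant. In rIFNβ they were 34.0, 34.0 and 36.6 CPM, and in Ifnb1eGFP supernatant 35.5, 43.7 and 39.4 CPM. The highest library with IFNβ was well below the lowest without it. H1f2 fell by 1.497 ± 0.0832 (log2, SE) with rIFNβ (edgeR adjusted p = 4.257e-08) and by 1.57 ± 0.0828 with Ifnb1eGFP supernatant (adjusted p = 3.336e-08). Only 8.54% of its 50-base words occur in another gene, so its reads can mostly be placed.

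H1f3, for linker histone H1.3, had far fewer counts than H1f2 and fell as well. It had 28, 34 and 44 counts in untreated control and 14, 7 and 16 in rIFNβ. In eGFP supernatant it had 26, 63 and 57 counts, and in Ifnb1eGFP supernatant 12, 16 and 14. The groups did not overlap in CPM, and the log2 fold changes were −1.60 ± 0.387 (adjusted p = 0.00419, edgeR) and −1.84 ± 0.373 (adjusted p = 0.00139). H1f1, H1f4 and H1f5 were too low to be tested, with at most 7, 9 and 7 counts in any library.

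H2ac25 (ENSMUSG00000078851), a core H2A gene on chromosome 11 that stands apart from the large clusters, was the member that rose. Its levels were 14.4, 13.4 and 15.3 CPM in untreated control and 27.3, 26.9 and 24.99 CPM in rIFNβ. In eGFP supernatant they were 13.8, 16.3 and 13.8 CPM, and in Ifnb1eGFP supernatant 19.3, 27.9 and 20.7 CPM. Groups did not overlap in either comparison, and the log2 fold changes were 0.87 ± 0.126 (adjusted p = 1.092e-04, edgeR) and 0.63 ± 0.125 (adjusted p = 0.00124). H2ac25 overlaps Trim17 on the same strand, and 70.7% of its 50-base words occur in another gene, most often Trim17. Reads of the 2 genes can be split wrongly between them. Trim17 itself stood at 0.521 and 0.927 CPM without and with rIFNβ (log2 fold change 0.81 ± 0.323, edgeR adjusted p = 0.0522) and at 0.498 and 0.628 CPM in the supernatants (0.34 ± 0.327, adjusted p = 0.405).

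Of the other H2A genes, H2ac19 and H2ac6 were tested. H2ac6 is the divergent partner of H2bc4 and had 8, 19 and 19 counts in untreated control against 4, 10 and 5 in rIFNβ, and 17, 23 and 30 in eGFP against 13, 8 and 6 in Ifnb1eGFP supernatant. It fell by 1.39 (adjusted p = 0.0195, edgeR) and by 1.41 (adjusted p = 0.0114) on the log2 scale. The libraries with IFNβ would not have taken H2ac6 past the filter, so these calls are a description only. The first call was lost without untreated control replicate 2 or 3 or rIFNβ replicate 1 or 3, with adjusted p of 0.0541 to 0.0775, and the second without Ifnb1eGFP supernatant replicate 3 (adjusted p = 0.0517). H2ac6 also overlaps H2bc4 on the other strand, and since the strand setting of the counting is not given, reads of the far more abundant H2bc4 may be among its counts.

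H2ac19 had 4.45, 3.34 and 4.68 CPM in untreated control, 1.28, 2.50 and 1.39 in rIFNβ, 4.47, 5.29 and 1.73 in eGFP and 0.152, 3.43 and 0.434 in Ifnb1eGFP supernatant. Its log2 fold changes were −1.26 ± 0.743 (adjusted p = 0.175, edgeR) and −1.53 ± 0.757 (adjusted p = 0.110) and did not pass. Without Ifnb1eGFP supernatant replicate 2, the library with the high value, they passed at 0.0204 and 3.16e-04. With only the compared conditions fitted the first passed (edgeR adjusted p = 0.00279), and with no filter the second (0.0398). All of its 50-base words occur in another gene, and its copy H2ac18 had at most 1 count in any library.

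H2bc4 (ENSMUSG00000018102), the core histone gene with the highest level per kb, did not pass the test in either comparison. Its levels were 134.8, 124.9 and 131.3 CPM in untreated control, 119.1, 127.9 and 106.6 CPM in rIFNβ and 138.5, 130.1 and 107.6 CPM in eGFP supernatant. In Ifnb1eGFP supernatant they were 91.6, 132.8 and 92.4 CPM, so that replicate 2 lay within the range of the libraries without IFNβ. The log2 fold changes were −0.14 (95% CI −0.42 to 0.13, adjusted p = 0.408, edgeR) and −0.25 (95% CI −0.52 to 0.02, adjusted p = 0.153). Without Ifnb1eGFP supernatant replicate 2 the second was −0.45 and passed (adjusted p = 0.00316), and with only the compared conditions fitted the first passed at −0.18 (adjusted p = 0.0344).

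The other H2B genes were far lower, and several fell. H2bc8 had 122, 154 and 278 counts in untreated control and 42, 68 and 77 in rIFNβ, and 141, 328 and 205 in eGFP and 23, 114 and 55 in Ifnb1eGFP supernatant. Its CPM did not overlap, and it fell by 1.66 ± 0.465 (adjusted p = 0.00989, edgeR) and by 1.86 ± 0.462 (adjusted p = 0.00511) on the log2 scale. About 49.7% of its 50-base words occur in other genes, with H2bc4 as the closest.

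H2bc9 had 2, 3 and 12 counts in untreated control and 0, 0 and 3 in rIFNβ, and 12, 10 and 12 in eGFP and 1, 1 and 2 in Ifnb1eGFP supernatant. The ratio of the summed counts was 0.162 with rIFNβ (95% counting interval 0.0304 to 0.559) and 0.113 with Ifnb1eGFP supernatant (0.0290 to 0.316), intervals that cover counting error only. Both comparisons passed (edgeR adjusted p = 0.0371 and 0.00570), but H2bc9 entered the test through libraries without IFNβ alone, so these calls are a description only. The untreated and rIFNβ groups overlapped. The rIFNβ call was lost without untreated control replicate 3 (adjusted p = 0.253), rIFNβ replicate 1 (0.102) or 2 (0.120) or eGFP supernatant replicate 1 (0.0509), and with DESeq2 (0.0624).

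H2bc21, which lacks the stem-loop element and shares no 50-base word with another gene, had 2.70, 2.75 and 3.62 CPM in untreated control, 2.55, 2.54 and 2.83 in rIFNβ, 3.33, 3.14 and 4.19 in eGFP and 2.60, 2.06 and 2.69 in Ifnb1eGFP supernatant. It fell by 0.53 ± 0.160 in supernatant (adjusted p = 0.0146, edgeR), a call lost without eGFP supernatant replicate 3 (adjusted p = 0.0653), and its change with rIFNβ was −0.20 ± 0.162 (adjusted p = 0.323). H2bc6 and H4c16, chosen after their values were seen, were called in supernatant with log2 fold changes of −1.07 (adjusted p = 0.0209, edgeR) and −1.09 (adjusted p = 0.0201) and not with rIFNβ. H4c16 passed the filter through the 3 eGFP supernatant libraries alone, so its call is a description only. The call of H2bc6 was lost without eGFP replicate 1 or 3 or Ifnb1eGFP replicate 1 or 3 (adjusted p = 0.0514 to 0.0750), and with rIFNβ it passed without rIFNβ replicate 3 (adjusted p = 0.0367). The call of H4c16 was lost without eGFP replicate 2 or 3 or Ifnb1eGFP replicate 2 or 3 (adjusted p = 0.0537 to 0.0955), with no filter (0.0956), with only the compared conditions fitted (0.0528) and with DESeq2 (0.124). The interaction test passed for none of these 3 genes.

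H2bc23 and H2bc24 are near-identical copies, and the counts were divided between them unevenly from library to library. The element was not found behind the stop codon of their canonical transcripts. H2bc24 had 0 counts in Ifnb1eGFP supernatant replicate 1 and 90 in replicate 3. Summed, the copies had 1.91, 4.30 and 5.89 CPM in untreated control, 2.08, 1.64 and 3.06 in rIFNβ, 2.90, 5.26 and 6.30 in eGFP and 2.07, 1.99 and 3.39 in Ifnb1eGFP supernatant. The mean was lower with IFNβ in both comparisons, but the groups overlapped and neither gene passed the test. Without Ifnb1eGFP replicate 3, H2bc24 passed in supernatant (edgeR adjusted p = 0.0453), and with only the compared conditions fitted it passed with rIFNβ at −1.22 (0.0418).

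Histone H3, which carries many of the regulatory marks on chromatin, was represented mainly by H3c15 and H3c4. H3c15 had 1.69, 2.14 and 1.77 CPM in untreated control, 0.920, 1.15 and 0.960 in rIFNβ, 2.17, 1.56 and 1.63 in eGFP and 1.09, 1.32 and 0.912 in Ifnb1eGFP supernatant. The groups did not overlap, and it fell by 0.88 ± 0.196 (adjusted p = 0.00253, edgeR) and 0.70 ± 0.193 (adjusted p = 0.00961). It shares 63.5% of its 50-base words with other genes, most often with Gm20634, a gene outside the set that overlaps H3c14 and H2ac18. Gm20634, chosen after its values were seen, had 14.3 and 7.43 CPM without and with rIFNβ and 15.4 and 7.65 CPM in the supernatants, and it fell as well, by 0.94 (adjusted p = 4.15e-06, edgeR) and 1.01 (adjusted p = 2.29e-06). The member H3c14, all of whose 50-base words occur in another gene, had 22 counts in Ifnb1eGFP supernatant replicate 1 and 0 in the other 11 libraries.

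H3c4 did not pass the test. Its log2 fold changes were −0.32 ± 0.243 (adjusted p = 0.295, edgeR) and −0.55 ± 0.236 (adjusted p = 0.0700). H3c6 had at most 8 counts in any library.

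H4c9 (ENSMUSG00000060639) held 64.6% of the H4 sum and fell as far as H1f2. Histone H4 pairs with H3 in the core of the nucleosome. H4c9 had 3.56, 4.10 and 4.61 CPM in untreated control and 1.01, 1.17 and 1.54 in rIFNβ. In eGFP supernatant it had 3.69, 4.36 and 3.31 CPM, and in Ifnb1eGFP supernatant 1.21, 1.42 and 1.22 CPM. The groups were far apart, with log2 fold changes of −1.72 ± 0.176 (adjusted p = 6.78e-06, edgeR) and −1.56 ± 0.174 (adjusted p = 1.424e-05). In H4c9, 28.9% of 50-base words occur elsewhere.

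H4c8 and H4c14 did not pass. H4c8 had 7, 7 and 19 counts in untreated control and 5, 5 and 0 in rIFNβ, and 20, 15 and 12 in eGFP and 1, 15 and 4 in Ifnb1eGFP supernatant. Without Ifnb1eGFP supernatant replicate 2 it passed in both comparisons (edgeR adjusted p = 0.0465 and 0.0145), in place of 0.103 and 0.168. The libraries with IFNβ would not have taken H4c8 past the filter, so these passes are a description only. H4c14 had 12 to 27 counts in every library and log2 fold changes of 0.13 (95% CI −0.42 to 0.69) and −0.33 (95% CI −0.86 to 0.20). H4c4 was too low for a test, with 1 to 20 counts.

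The supernatant itself and the source of IFNβ were compared next. Between eGFP supernatant and untreated control 0 of the 20 genes passed the edgeR test (0.299% of all genes did), and 2 had an unadjusted p under 0.05. DESeq2 also called 0. H1f2 was 0.25 higher on the log2 scale in eGFP supernatant (95% CI 0.10 to 0.41, adjusted p = 0.344), and all 3 of its libraries lay above the untreated controls. H4c16, chosen after its values were seen, had 5 counts in each control and 11 or 12 in eGFP supernatant, the group through which alone it passed the filter. For 3 of the 20 genes all eGFP libraries lay above all untreated ones, and for 0 below, where 15.5% of all genes were separated in one direction or the other.

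Between Ifnb1eGFP supernatant and rIFNβ 0 of the 20 passed with edgeR or DESeq2 (0.16% of all genes did with edgeR) and 0 had an unadjusted p under 0.05. Log2 fold changes ran from −1.03 to 0.88, and the groups overlapped for all 20 genes, while 12.8% of all genes did not overlap. For H1f2 the difference was 0.18 (95% CI 0.02 to 0.34) and for H2ac25 −0.22 (95% CI −0.46 to 0.02). The interaction of IFNβ and supernatant passed for 0 of the 20 with either tool (0.0% of all genes with edgeR), with 0 at an unadjusted p under 0.05. Without Ifnb1eGFP supernatant replicate 2, 2 of 23 members then tested were called lower in Ifnb1eGFP supernatant than in rIFNβ.

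Ifnb1eGFP supernatant replicate 2 stood apart in the histone genes, and not in them alone. Its H2A and H2B sums were 31.8 and 141.8 CPM, against 20.0 and 21.5 and against 97.6 and 100.8 CPM in the other Ifnb1eGFP libraries. Without it, 15 members in place of 11 were called in the supernatant comparison and 11 in place of 8 with rIFNβ, where the spread is shared between conditions. Its total of 41015507 counts was the middle one of its group. Over genes of the whole table, those with few counts left out, pairs of libraries of a condition were compared by chi-square per degree of freedom. Replicate 2 gave 54.0 against replicate 1 and 23.3 against replicate 3, while replicates 1 and 3 gave 17.05. Pairs of the other conditions gave 5.34 to 18.6.

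Variant histones are made mostly from polyadenylated mRNAs and, unlike the replication-dependent ones, also outside S phase. Of 11 listed, 10 were tested, of which 1 rose and 3 fell with rIFNβ and 1 rose and 7 fell in supernatant. Of all genes tested, 30.7% rose and 24.6% fell with rIFNβ and 30.1% and 25% in supernatant. H3f3b, which encodes histone H3.3, was the one that rose, from 434 ± 40.0 to 892 ± 5.75 CPM with rIFNβ (log2 fold change 1.04, adjusted p = 1.887e-07, edgeR) and from 467 ± 35.3 to 865 ± 14.6 in supernatant (0.89, adjusted p = 7.275e-07). H3f3a encodes the same protein and fell by 0.46 (adjusted p = 9.596e-07, edgeR) and 0.37 (adjusted p = 6.933e-06). H2az1, for the variant H2A.Z, fell from 96.7 ± 3.77 to 66.0 ± 3.18 CPM and from 102 ± 3.25 to 67.9 ± 3.47 CPM. Cenpa, the H3 variant of the centromere, fell by 1.17 (adjusted p = 2.249e-04, edgeR) and 1.26 (adjusted p = 1.011e-04).

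The other variants passed in supernatant alone or in neither comparison. H1f0, a linker histone of non-dividing cells, fell by 0.48 in supernatant (adjusted p = 4.582e-04, edgeR) and stood at −0.19 with rIFNβ (adjusted p = 0.0721), where it passed without untreated control replicate 2 (0.0344) or Ifnb1eGFP replicate 1 (0.0222), with RLE factors (0.0199), with DESeq2 (0.0358) and with only the compared conditions fitted (0.0253). H2ax, H2aj and H2az2 passed in supernatant alone (edgeR adjusted p = 0.0374, 0.0303 and 0.0448), and these calls were weak. That of H2ax was lost without eGFP replicate 1 or 2, Ifnb1eGFP replicate 1 or 3 or rIFNβ replicate 1 (adjusted p = 0.0503 to 0.109), and that of H2aj without eGFP replicate 1 or 2 or Ifnb1eGFP replicate 1 or 3 (0.0643 to 0.0989). That of H2az2 was lost without any 1 library other than untreated control replicate 3 and Ifnb1eGFP replicate 2 (0.0546 to 0.124). With rIFNβ, H2ax and H2aj passed without Ifnb1eGFP replicate 1 or 2 and H2az2 without Ifnb1eGFP replicate 1 (0.0168 to 0.0475). With only the compared conditions fitted, H2ax, H2aj and H2az2 lost their supernatant calls (edgeR adjusted p = 0.0877, 0.0651 and 0.114), and H2ax and H2aj passed with rIFNβ (0.0193 and 0.0212). H2az2 also lost its call with no filter (0.0798). Macroh2a1 and Macroh2a2 did not pass, with log2 fold changes of 0.04 and 0.18 with rIFNβ and −0.04 and −0.33 in supernatant, and the sign of the Macroh2a1 change with rIFNβ depended on the scaling. Without Ifnb1eGFP replicate 2, Macroh2a2 passed in supernatant at −0.54 (edgeR adjusted p = 0.0293). H1f10 had too few counts for a test.

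**Figure D5:**
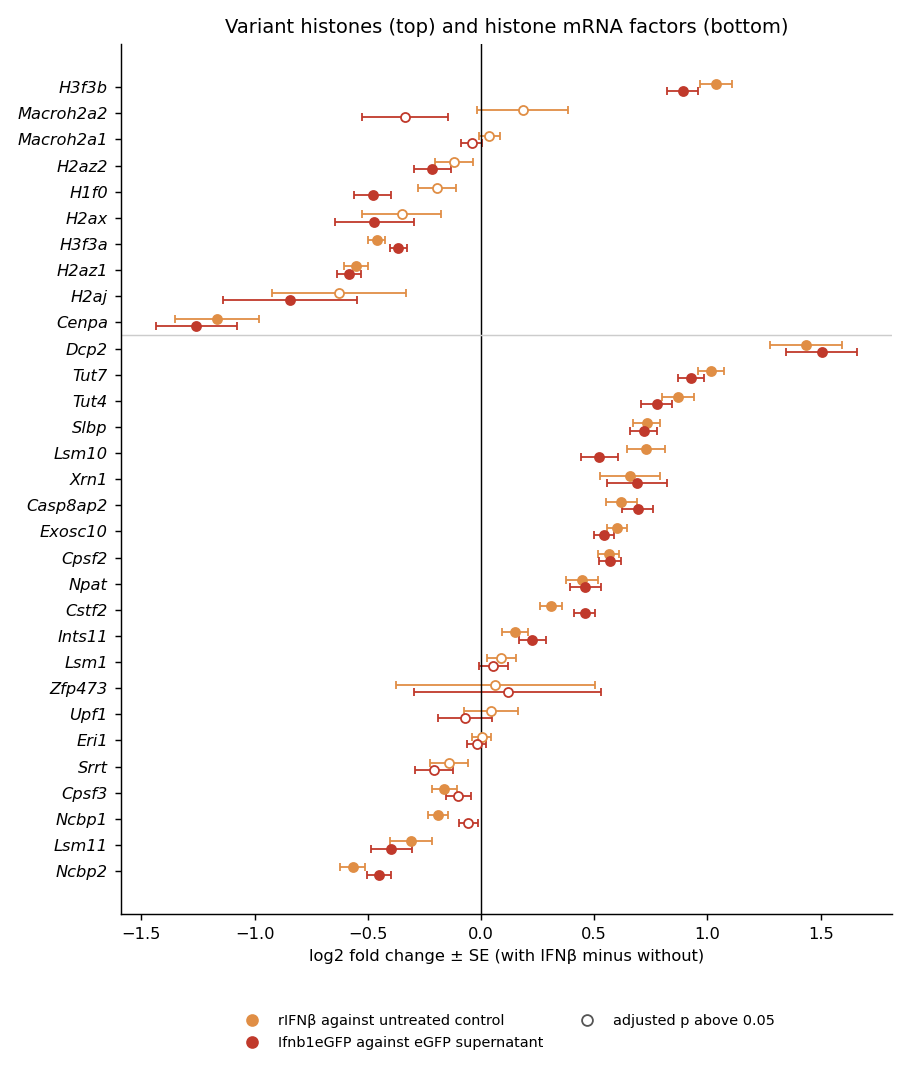
Log2 fold change with its standard error for the 10 variant histones and the 21 genes of histone mRNA transcription and 3′ end processing that were tested. Filled points passed an adjusted p of 0.05. H3f3b, Slbp, Casp8ap2 and Lsm10 lie to the right of 0 and Cenpa, H2az1 and Lsm11 to its left in both comparisons.

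Of 21 tested genes that make and destroy histone mRNA, 12 rose and 4 fell with rIFNβ, where 30.7% of all genes rose and 24.6% fell. In supernatant 12 rose and 2 fell, where 30.1% and 25% of all genes did. Slbp, which binds the stem-loop, rose from 19.9 ± 1.27 to 33.0 ± 1.86 CPM with rIFNβ (log2 fold change 0.73, adjusted p = 1.028e-06, edgeR) and from 20.7 ± 0.265 to 34.1 ± 1.31 CPM in supernatant (0.72, adjusted p = 1.26e-06). Npat, the activator of histone gene transcription, rose by 0.44 (adjusted p = 2.216e-04, edgeR) and 0.46 (adjusted p = 1.569e-04). Casp8ap2, which works with Npat at the histone loci, rose by 0.62 and 0.69, and Lsm10, a protein of the U7 snRNP, by 0.73 and 0.52. Lsm11, its partner in the U7 snRNP, fell by 0.31 (adjusted p = 0.0131, edgeR) and 0.40 (adjusted p = 0.00312), the first call being lost without rIFNβ replicate 3 (adjusted p = 0.0599). Tut7, which adds uridines to histone mRNA before decay, rose from 90.6 ± 4.69 to 183 ± 2.42 CPM and from 101 ± 3.36 to 193 ± 13.4 CPM, and Cpsf2, a subunit of the cutting complex, by 0.56 and 0.57.

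Of 24 listed S phase genes, all of them tested, 15 rose and 2 fell with rIFNβ, against 30.7% and 24.6% of all genes. In supernatant 15 rose and 4 fell, against 30.1% and 25%. Mcm6, a subunit of the replicative helicase, rose from 75.6 ± 2.68 to 181 ± 8.36 CPM with rIFNβ and from 76.2 ± 6.88 to 183 ± 1.67 CPM in supernatant. Prim1, the primase that starts new strands, rose by 1.41 and 1.47, and Cdc6, which loads the helicase, by 1.11 and 1.12 on the log2 scale. Chosen after their values were seen, Pcna, the sliding clamp, fell by 0.32 and 0.32, and the proliferation marker Mki67 by 0.37 and 0.58. Rrm2, which supplies deoxynucleotides and is made in S phase, stood at 16.4 ± 1.76 and 18.6 ± 3.00 CPM without and with rIFNβ and at 17.1 ± 1.16 and 17.3 ± 1.56 CPM in the supernatants and did not pass (edgeR adjusted p = 0.224 and 0.926).

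Among 21 histone chaperones and enzymes that modify new histones, 8 rose and 4 fell in each comparison, where 30.7% of all genes rose and 24.6% fell with rIFNβ and 30.1% and 25% in supernatant. Daxx, a chaperone that deposits H3.3, rose from 27.7 ± 0.687 to 167 ± 2.37 CPM with rIFNβ and from 33.2 ± 10.0 to 150 ± 11.4 CPM in supernatant. Hat1, which acetylates new histone H4, rose by 0.55 and 0.60, and Ssrp1, of the FACT complex, by 0.33 and 0.39. Of the 3 RNAs without a poly(A) tail that were tested, Rn7sk rose by 0.99 (adjusted p = 0.0173, edgeR) and 0.84 (adjusted p = 0.0369). Its calls were lost without untreated control replicate 2 or 3, and in supernatant without eGFP replicate 1 or 2 or Ifnb1eGFP replicate 2 or 3, with adjusted p of 0.0569 to 0.129.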

How the data were processed

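Libraries of 12 samples were prepared with a stranded total RNA kit (TruSeq Stranded Total RNA) after an RNA quality check. The authors aligned reads with RSEM (version 1.3.3 in the submitters' processing notes) and deposited 1 table of unnormalized expected counts per gene, not adjusted for depth or length. The sources name both GRCm39 and mm10 as the reference, and the strand setting is not given in the sources used here. RSEM divides reads shared by copies in proportions that it estimates, so 49 of the 55 members with counts held values that were not whole, and expected counts were rounded.

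Groups and replicate numbers came from the labels, and 0 columns of other samples were present. Genes were filtered with filterByExpr, scaled by TMM and fitted over all 4 conditions with edgeR 4.0.16 (quasi-likelihood test, R 4.3.3). P-values were adjusted by Benjamini-Hochberg over 15033 genes, and a gene was called at an adjusted p of at most 0.05. SE is the size of the log2 fold change divided by the square root of F, and intervals are 1.96 SE to each side. The edgeR procedure was tested on simulated data. Class sums are sums of CPM and carry no test. A floor of 3 counts per library marked ratios that rest on few counts.

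Positions and sequences are GRCm39 with GENCODE annotation, matched by Ensembl identifier, since that is the annotation used here, and the deposited table gives no coordinates. The 3′ element was searched on the coding strand over 150 bases behind the stop codon of the canonical transcript. Partners were paired when their starts lay within 1000 bases, and shared sequence was measured with words of 50 bases. Members and lists were chosen with earlier results of these data known. Named genes were the 4 highest of each class (all H1 genes), the members with the largest called changes without overlap, all variant histones, Slbp, Npat, Casp8ap2, Lsm10 and Lsm11, and the 3 with the smallest adjusted p of every other list. Depth of 31526034 to 45348457 counts limits genes under about 10 counts per library. Alternatives were other scalings, no filter, DESeq2 1.42.0, a replicate block, only the compared conditions, the study's threshold and leaving out each library.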

Additional observations from a re-analysis of the deposited data

How the results depend on the processing

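With other scalings, no filter, DESeq2, a replicate block or only the compared conditions, 8 to 9 members were called with rIFNβ and 9 to 13 in supernatant, against 8 and 11. The genes behind these totals were not always the same. With only the compared conditions fitted, H2ac19, H2bc24 and H2bc4 were added with rIFNβ, while H2ac6 and H2bc9 had too few counts to pass the filter. The study's threshold left 0 and 1. Leaving out 1 library gave 6 to 11 with rIFNβ, 8 to 15 in supernatant, 0 to 2 between Ifnb1eGFP supernatant and rIFNβ, and 0 to 0 for the other comparisons, and the highest values were those without Ifnb1eGFP replicate 2. Without the highest gene of each class, the log2 ratios with rIFNβ were −1.26 for H2A (reversed from 0.55), −0.82 for H2B, −0.45 for H3, −0.62 for H4 and −0.89 for all classes. In supernatant they were −1.44 for H2A, −1.04 for H2B, −0.87 for H4 and −1.08 for all classes, and for eGFP supernatant against untreated control 0.18 for H2B and 0.44 for H4. These shifts follow from the gene that was left out. Per kb of exon the H2A ratio was 0.042 with rIFNβ and −0.16 in supernatant, and that of all classes −0.73 with rIFNβ. All 144 class sums without 1 library moved by less than the spread between libraries.

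Replicate numbers were shared by all conditions. Deviations of same-numbered libraries correlated by 0.0582 to 0.252, above 0.1 in 13 of 18 pairs, and 11 of 12 libraries correlated best with their own number, which is a hint from the data and not the design. With the replicate block, 8 members were called with rIFNβ and 13 in supernatant, where H3c4 (−0.54, edgeR adjusted p = 0.0189) and H2bc24 (−1.74, 0.0141) passed, 0 in the other comparisons, and 3 of the RNAs without a poly(A) tail with rIFNβ in place of 1.

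For single genes, 488 of 511 alternatives other than leaving out a library, and 967 of 1032 that left out 1, kept direction and call. The sign of Macroh2a1 with rIFNβ turned to −0.011 with RLE factors and −0.0067 with DESeq2, and ran from −0.0079 to 0.071 without 1 library. That of H4c16 with rIFNβ ran from −0.35 to 0.0020. Without 1 library, Rn7s1 and its identical copy Rn7s2 ran from −0.40 to 0.19 in supernatant. The cause was not tested. Genes with few counts, such as H2bc9, H4c16 and H2ac6, are limited by depth, and 47 members could not be tested.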
